A study of Mus musculus with 21 samples.

Results

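Fibroblast growth factors (FGFs) and their receptors were followed in E14 mouse embryonic stem cells given an inhibitor of RNA polymerase I. The 10 genes described are the ligands Fgf4, Fgf5, Fgf8, Fgf15 and Fgf17, the receptors Fgfr1, Fgfr2, Fgfr3 and Fgfr4, and the FGF carrier protein gene Fgfbp1. They were found by symbol as 10 of the 20900 genes of the deposited table. The list had been selected on the log2 values of these libraries, so the values that chose the genes are those described. Their own levels and differences are therefore given as a description, with no p-value. E14 is a line of the 129 strain, grown here in medium with serum and leukaemia inhibitory factor (LIF). Cells were plated on the day before treatment, and then moved to fresh medium that held BMH-21 or CX-5461, each at 1 µM. Both compounds block transcription of ribosomal DNA by RNA polymerase I. Poly(A) RNA was sequenced before treatment (0 h) and at 2, 4 and 8 h of either compound, which gave 7 groups of 3 libraries, 21 in all. The 0 h libraries were the only control for both inhibitors, so every comparison with control shares the same 3 libraries, and cells kept for 2, 4 or 8 h in fresh medium without inhibitor are not analysed here. The labels name no vehicle for the inhibitors and do not say that the replicates were separate cultures. The p-values therefore rest on a spread between libraries that may be technical. That spread was taken mostly from a trend over all genes.

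FGFs are secreted proteins that bind receptor tyrosine kinases together with heparan sulfate, a sugar chain of cell surface proteoglycans. The bound receptor acts through adaptor proteins on RAS and on the RAF, MEK and ERK kinases, and ERK raises the transcription of its own inhibitors (the Sprouty and dual-specificity phosphatase genes) and of ETS factors. Embryonic stem cells make Fgf4 themselves, and the signal it gives through Fgfr1 readies them to leave the naive state and take up a lineage, while LIF and serum hold them undifferentiated.

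The window from 250 bases before to 50 bases after the RefSeq start site (build GRCm38.p6) was read for the genes that had one, 6 of the 10: Fgf4, Fgf5, Fgfr2, Fgfr3, Fgfr4 and Fgfbp1. The 250 bases before the start are printed below for the ligands that had a window, Fgf4 and Fgf5, which were lower at 8 h of BMH-21, and for Fgfr4 and Fgfbp1, which were higher with both inhibitors. Fgf4 is at chr7:144861136-144861385 on the plus strand, Fgf5 at chr5:98253934-98254183 on the plus strand, Fgfr4 at chr13:55152568-55152817 on the plus strand, and Fgfbp1 at chr5:43981800-43982049 on the minus strand. These 4 were chosen after their values were seen. Each runs 5′ to 3′ in the direction of its gene, and capitals mark matches, on either strand, to the motifs searched.
Fgf4: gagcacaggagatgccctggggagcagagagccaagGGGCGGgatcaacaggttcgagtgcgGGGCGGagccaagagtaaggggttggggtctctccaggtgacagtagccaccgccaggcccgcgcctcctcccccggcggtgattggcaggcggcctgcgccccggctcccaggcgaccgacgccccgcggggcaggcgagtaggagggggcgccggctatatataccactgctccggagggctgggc
Fgf5: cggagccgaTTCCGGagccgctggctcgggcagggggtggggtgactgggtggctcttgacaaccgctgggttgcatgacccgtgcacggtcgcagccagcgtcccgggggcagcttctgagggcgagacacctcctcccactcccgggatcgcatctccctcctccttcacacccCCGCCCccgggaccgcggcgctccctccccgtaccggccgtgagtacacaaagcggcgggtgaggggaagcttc
Fgfr4: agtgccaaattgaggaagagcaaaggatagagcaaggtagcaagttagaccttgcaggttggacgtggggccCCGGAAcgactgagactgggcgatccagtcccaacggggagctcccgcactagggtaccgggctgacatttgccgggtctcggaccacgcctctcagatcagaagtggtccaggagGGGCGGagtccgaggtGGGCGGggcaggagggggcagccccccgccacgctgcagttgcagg
Fgfbp1: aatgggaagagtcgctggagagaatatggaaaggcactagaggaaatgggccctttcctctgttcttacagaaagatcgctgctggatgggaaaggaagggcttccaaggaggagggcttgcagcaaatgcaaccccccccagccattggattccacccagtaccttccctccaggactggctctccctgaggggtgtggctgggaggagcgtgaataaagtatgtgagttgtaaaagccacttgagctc

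Both strands were searched. The letters were TATAAA for the TATA box and GGGCGG for the GC box. The AP-1 site was read as TGACTCA, the E-box as CACGTG and the ETS core as CCGGAA. Positions count from -1 for the base before the start site and from 1 for the base at it, and give the first base of the match. The Fgf4 window held GC boxes at -214 and -188. The Fgf5 window held an ETS core at -241, a GC box at -74 and a TATA box at 35, the last in the part not printed. Fgfr4 held an ETS core at -178 and GC boxes at -62, -46, 24 and 39. Fgfbp1 held a TATA box at 4 and no GC box. GC boxes stand in 35.7% of the 32851 windows of the RefSeq table, TATA boxes in 13.6%, ETS cores in 14.9%, E-boxes in 7.15% and AP-1 sites in 5.20%. No window of these genes held the AP-1 letters. The GC content was 69.7% for Fgf4, 68.3% for Fgf5, 65.3% for Fgfr4 and 53.3% for Fgfbp1, against a median of 52.7% over all windows. A match is a description of the letters and was not tested for use.

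The libraries held 46604397 to 62812641 reads over the genes of the table, recovered from the deposited log2 values. A log2 value of 0 stood for 42 to 86 reads, and 3 reads for a log2 value from -4.63 to -3.59. Replicates differed by more than sampling noise in each group, since chi-square divided by its degrees of freedom ran from 2.65 to 27.3, and the highest values were those of replicate 2 of the 8 h BMH21 group against its partners. The deposited values carry a scaling factor per library that differs from the median ratio of the genes. Centring each library on its median gene removed a shift against control. At 2, 4 and 8 h it was -0.08, -0.15 and -0.21 in BMH-21 libraries, and -0.15, -0.16 and 0.22 in CX-5461 libraries. Values are on the deposited log2 scale unless centring is named, and a change beyond the threshold means an adjusted p under 0.05 from limma over 14666 genes tested. For the genes selected on these libraries, passing the threshold is a description and not a test of the gene.

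In untreated cells Fgf4 led the 10 genes by a wide margin when levels were set per kb of transcript. Its level was 6.22 ± 0.11 (SD, n = 3) on the log2 scale per kb. Fgf17 followed at 4.44 ± 0.11 and Fgfr1 at 4.29 ± 0.12, and the libraries of these 2 genes overlapped. Below them came Fgf15 (2.93 ± 0.22), Fgfr2 (2.51 ± 0.15) and Fgfbp1 (2.20 ± 0.07), each apart from its neighbours in all 3 libraries. Fgfr3 (0.45 ± 0.08) and Fgfr4 (0.22 ± 0.23) overlapped. Fgf5 (-0.62 ± 0.19) and Fgf8 (-1.65 ± 0.41) stood last. After 8 h of BMH-21 the order per kb was Fgfr1 (4.54 ± 0.11), Fgf4 (4.27 ± 0.14), Fgfbp1 (3.72 ± 0.07) and Fgfr4 (3.45 ± 0.10), with no overlap between neighbours, and Fgf17 had come down to 0.50 ± 0.23. After 8 h of CX-5461 Fgf4 (5.85 ± 0.10) again stood first, above Fgfr1 (4.67 ± 0.03).

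Fgf4, the ligand that embryonic stem cells signal with, lay below control in each treated library. Untreated cells gave log2 values of 7.87, 7.89 and 7.69. With BMH-21 the values were 6.98, 7.18 and 7.09 at 2 h, 6.27, 6.04 and 6.05 at 4 h, and 5.98, 5.71 and 5.92 at 8 h. No library of a later BMH-21 time reached the lowest of the time before. With CX-5461 they were 7.29, 7.04 and 7.10 at 2 h, 6.96, 7.22 and 6.98 at 4 h, and 7.55, 7.34 and 7.46 at 8 h, so as deposited the 8 h libraries lay above those at 4 h and still below control. The step from 4 to 8 h of CX-5461 was 0.40, but 0.02 after centring and 0.03 with median ratios, past the threshold only as deposited. At 8 h the difference from control was -1.94 ± 0.11 (SE) with BMH-21, 3.85-fold lower, and -0.36 ± 0.11 with CX-5461, or -0.58 for CX-5461 after centring, beside -0.60 at 4 h. Fgf4 lies at chr7:144861386-144865245 in GRCm38.p6.

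Fgf15, the mouse counterpart of human FGF19 and best known as a gut hormone that restrains bile acid synthesis, stood 35.1 kb downstream of the Fgf4 start, at chr7:144896532-144900953. Control libraries gave 3.85, 3.97 and 3.54. BMH-21 gave 2.63, 2.99 and 2.87 at 2 h, 0.98, 0.54 and 0.92 at 4 h, and 0.29, 0.29 and 0.15 at 8 h, from 550 to 710 reads in control down to 69 to 105 reads. CX-5461 gave 3.03, 2.54 and 2.86 at 2 h, 2.15, 2.75 and 2.18 at 4 h, and 3.95, 4.08 and 3.84 at 8 h. The 8 h CX-5461 libraries overlapped control, whereas the 8 h BMH-21 libraries lay 3.54 ± 0.14 (SE) log2 units below it, which is 11.6-fold lower. Long noncoding genes overlap Fgf15 (Gm26793 among them) and Fgf17 (Gm38605), and Gm16159 overlaps Fgfr1. The libraries were made with a directional kit, but whether strand was used in counting is not given in the sources used here, so reads of those pairs may not be told apart.

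Fgf17, a ligand of the Fgf8 subfamily, had the lowest value of any of the 10 genes relative to control. Control libraries gave 5.32, 5.14 and 5.13. With BMH-21 the values were 5.07, 5.09 and 5.00 at 2 h, 3.76, 3.45 and 3.77 at 4 h, and 1.27, 1.02 and 1.48 at 8 h. The groups did not overlap at any of these steps, and the difference from control at 8 h was -3.94 ± 0.12 (SE), 15.3-fold lower. With CX-5461 they were 4.80, 4.69 and 4.60 at 2 h, 3.13, 3.48 and 3.35 at 4 h, and 4.01, 4.00 and 3.93 at 8 h. The 8 h CX-5461 libraries thus stood above those at 4 h and 1.22 ± 0.12 log2 units below control. The step from 4 to 8 h of CX-5461 was 0.66, but 0.29 after centring and with median ratios. After centring the 8 h CX-5461 difference from control was -1.43.

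Fgf5, a ligand that marks the epiblast after implantation, was near the limit of what was tested. It was above a log2 value of 0 in 9 of 21 libraries, among them the 3 of control and the 3 of CX-5461 at 8 h. Control libraries held 66 to 82 reads (0.82, 0.81 and 0.49). BMH-21 gave 0.06, -0.02 and -0.04 at 2 h, -1.70, -1.63 and -2.03 at 4 h, and -1.86, -2.07 and -1.93 at 8 h, where 16 to 20 reads remained. CX-5461 gave 0.14, -0.32 and -0.04 at 2 h and -0.63, 0.32 and -0.52 at 4 h, all below control, but 1.49, 1.54 and 0.98 at 8 h, all above it. At 8 h the difference from control was -2.66 ± 0.26 (SE) with BMH-21 and 0.63 ± 0.26 with CX-5461. The latter was 0.42 after centring, where it missed the threshold.

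Fgf8, a ligand of gastrulation, held 8 to 33 reads in the 21 libraries and was below the filter, so it was not tested. Control libraries gave -1.06, -1.86 and -1.36. BMH-21 gave -0.84, -0.81 and -0.70 at 2 h, -1.06, -1.71 and -0.72 at 4 h, and -2.82, -2.48 and -2.72 at 8 h. The 2 h libraries lay above control and the 8 h libraries below it. The 9 CX-5461 libraries lay between -2.96 and -0.85 and overlapped control at each time.

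**Figure D1:**
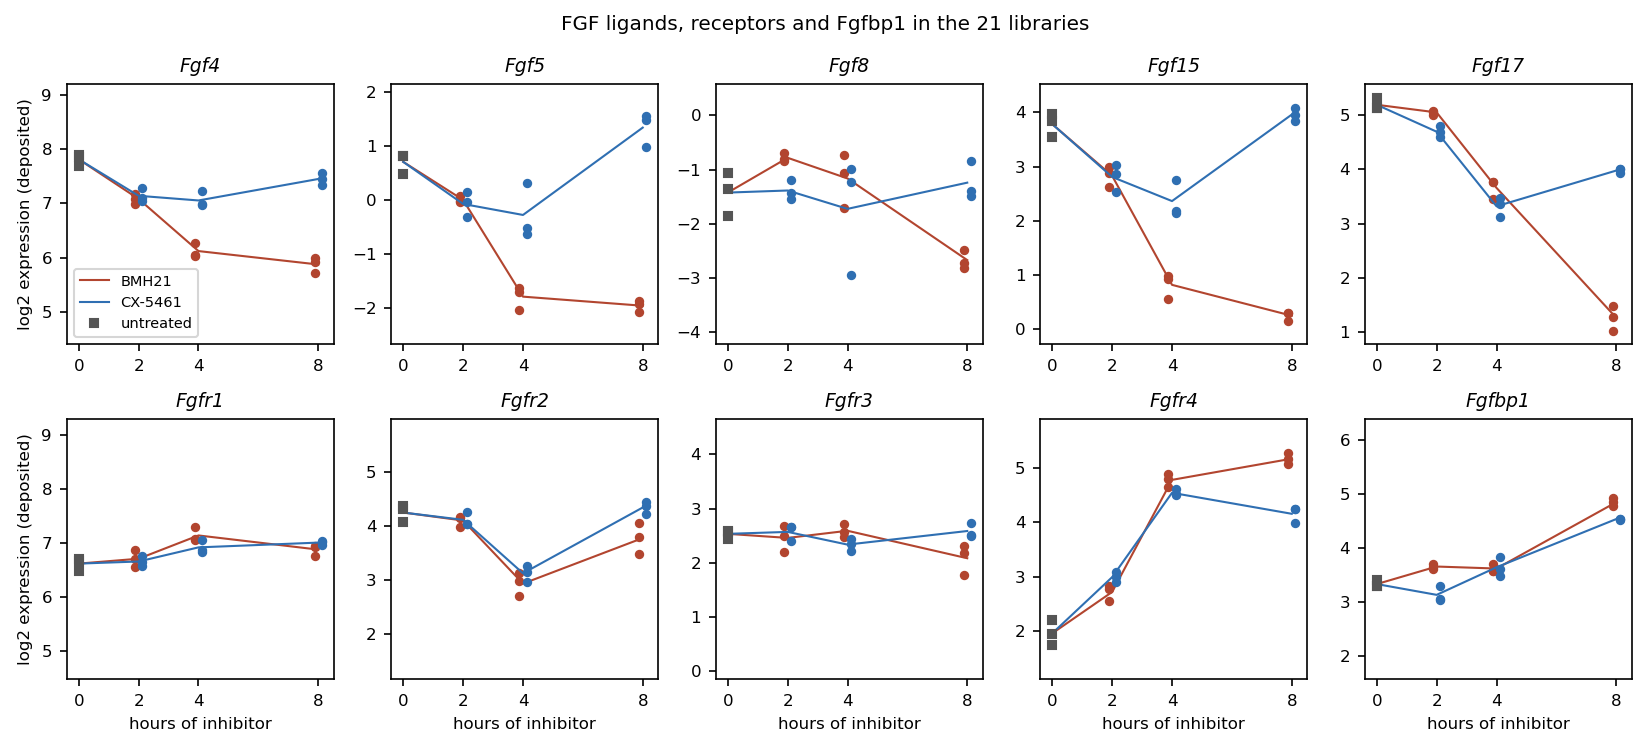
Deposited log2 expression of the 10 genes against hours of inhibitor, with 1 point per library (squares, untreated; red, BMH21; blue, CX-5461) and lines through the group means. Each panel spans the same number of log2 units. Fgf4, Fgf5, Fgf15 and Fgf17 have their lowest group means after 8 h of BMH-21, and Fgfr4 has its highest there.

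Fgfr1, the main FGF receptor of embryonic stem cells, varied little. Control libraries gave 6.71, 6.67 and 6.48. BMH-21 gave 6.56, 6.87 and 6.70 at 2 h, 7.29, 7.07 and 7.06 at 4 h, and 6.93, 6.76 and 6.95 at 8 h. CX-5461 gave 6.76, 6.64 and 6.57 at 2 h, 6.83, 7.06 and 6.87 at 4 h, and 7.04, 6.97 and 7.02 at 8 h. Both 2 h groups overlapped control, and all libraries at 4 and 8 h lay above it. The differences from control at 8 h were 0.26 ± 0.11 (SE) with BMH-21 and 0.39 ± 0.11 with CX-5461, or 0.47 and 0.17 after centring.

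Fgfr2, which in the early embryo is raised in primitive endoderm and trophectoderm, was lowest at 4 h with both inhibitors. Control libraries gave 4.36, 4.30 and 4.07. At 4 h BMH-21 gave 3.12, 2.97 and 2.70 and CX-5461 gave 2.96, 3.26 and 3.15, all below the other groups. At 8 h BMH-21 gave 4.05, 3.48 and 3.78, and CX-5461 gave 4.36, 4.22 and 4.43, above the 4 h libraries of the same inhibitor. The difference from control was -1.31 ± 0.12 (SE) for BMH-21 and -1.12 ± 0.12 for CX-5461 at 4 h, and -0.47 ± 0.12 and 0.09 ± 0.12 at 8 h. With median-ratio scaling the 8 h BMH-21 value was -0.11 and missed the threshold.

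Fgfr3 stood between 1.76 and 2.73 in all 21 libraries. Control libraries gave 2.59, 2.44 and 2.56. The 8 h BMH-21 libraries gave 2.31, 1.76 and 2.17, below control, with a difference of -0.45 ± 0.14 (SE), or -0.24 after centring and -0.09 with median-ratio scaling, where it missed the threshold. The 8 h CX-5461 libraries gave 2.52, 2.50 and 2.73 and overlapped control.

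Fgfr4, the receptor best known for its part in the liver response to Fgf15, was the only receptor that stood well above control with both inhibitors. Control libraries gave 2.19, 1.93 and 1.73, from 157 to 213 reads. BMH-21 gave 2.55, 2.78 and 2.82 at 2 h, 4.90, 4.65 and 4.81 at 4 h, and 5.17, 5.09 and 5.28 at 8 h, where 2156 to 2938 reads were counted. CX-5461 gave 3.08, 2.90 and 2.99 at 2 h, 4.53, 4.61 and 4.50 at 4 h, and 4.24, 3.99 and 4.24 at 8 h. Each treated library lay above each control library, and BMH-21 values lay higher at each later time, while CX-5461 values at 8 h lay below those at 4 h. The difference from control at 8 h was 3.23 ± 0.12 (SE) with BMH-21, 9.36-fold higher, and 2.21 ± 0.12 with CX-5461, 4.62-fold higher. The gene lies at chr13:55152818-55168759.

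Fgfbp1 codes for a secreted protein that carries FGFs off the heparan sulfate of the matrix. Control libraries gave 3.42, 3.30 and 3.30. BMH-21 gave 3.61, 3.71 and 3.66 at 2 h, 3.71, 3.57 and 3.59 at 4 h, and 4.84, 4.78 and 4.92 at 8 h. CX-5461 gave 3.31, 3.07 and 3.04 at 2 h, 3.49, 3.83 and 3.62 at 4 h, and 4.53, 4.55 and 4.54 at 8 h. The highest libraries of both series were thus those of 8 h, with differences from control of 1.51 ± 0.11 (SE) for BMH-21 and 1.20 ± 0.11 for CX-5461. The 2 h CX-5461 libraries overlapped control.

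Markers of cell types were read beside these levels. In bulk RNA, fewer cells of a type and less RNA per cell cannot be told apart. The 9 embryonic stem cell markers summed to 5582 to 5636 CPM (reads scaled to a common library total) in control, to 3521 to 3959 in the 8 h BMH-21 libraries and to 5086 to 5139 in those of CX-5461. Of them 9 fell and 0 rose at 8 h of BMH-21, and 6 fell and 1 rose with CX-5461 (limma, as above). Of all genes tested 56.9% fell and 24.5% rose with BMH-21 at that time, and 14.3% fell and 35.1% rose with CX-5461. The 5 markers of formative or primed epiblast summed to 633 to 662 CPM in control, and at 8 h to 180 to 199 with BMH-21 against 364 to 382 with CX-5461. Sums of the 6 trophoblast markers were 89.7 to 92.3 CPM in control, and at 8 h 178 to 185 under BMH-21 against 140 to 153 under CX-5461. The 6 primitive endoderm markers gave 13.99 to 15.38, 23.8 to 25.1 and 16.5 to 18.5 in the same order, and the 5 fibroblast markers 27.7 to 28.96, 50.04 to 56.1 and 39.2 to 40.8. The 5 mesoderm markers gave 6.09 to 7.19, 9.29 to 10.01 and 10.9 to 13.1, and the 4 neural markers 180 to 227, 140 to 146 and 252 to 263. The calls at 8 h of BMH-21, as higher and lower of those tested, were 0 and 5 of 5 for epiblast, 3 and 2 of 5 for trophoblast and 2 and 2 of 5 for primitive endoderm. They were 1 and 2 of 5 for mesoderm, 0 and 2 of 4 for neural and 1 and 1 of 3 for fibroblast markers. For CX-5461 in the same order they were 1 and 2, 4 and 0, 2 and 0, 3 and 0, 1 and 1, and 2 and 0. After centring the CX-5461 counts were 1 and 4, 3 and 0, 2 and 2, 2 and 0, 1 and 1, and 1 and 1, beside 29.3% of all genes higher and 44.7% lower. No marker was at 0 in all libraries of a group, and the part of these markers in the FGF values was not tested.

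Counts past the threshold describe the 9 genes tested, of which Fgf5 is one, and nothing is read from them. Against control BMH-21 had 2 higher and 3 lower at 2 h, where 8.48% of all genes tested were higher and 11.2% lower. At 4 h it had 3 higher and 5 lower (22.1% and 44.9% of all genes), and at 8 h 3 higher and 6 lower (24.5% and 56.9%). CX-5461 had 1 higher and 4 lower at 2 h (7.45% and 20.5%), 3 higher and 5 lower at 4 h (19.8% and 51.2%), and 4 higher and 2 lower at 8 h (35.1% and 14.3%). For CX-5461 at 2 h the split was 2 higher and 4 lower after centring (15.8% and 17.8% of all genes) and with median ratios (18.8% and 12.8%). The median difference of the 9 genes at 8 h was -0.47 with BMH-21, beside -0.40 over all genes tested, and 0.18 with CX-5461, beside 0.11. The split at 8 h of BMH-21 was 3 and 6 after centring (33.3% and 51.3% of all genes) and 3 and 4 with median ratios (39.2% and 43.3%). For CX-5461 it was 3 and 2 after centring (29.3% and 44.7%) and 4 and 2 with median ratios (35.2% and 35.3%). The count higher at 2 h of BMH-21 was 1 without replicate 1, 2 or 3 of that group or replicate 2 or 3 of control, and the 4 h CX-5461 count was 1 without replicate 2 of that group.

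**Figure D2:**
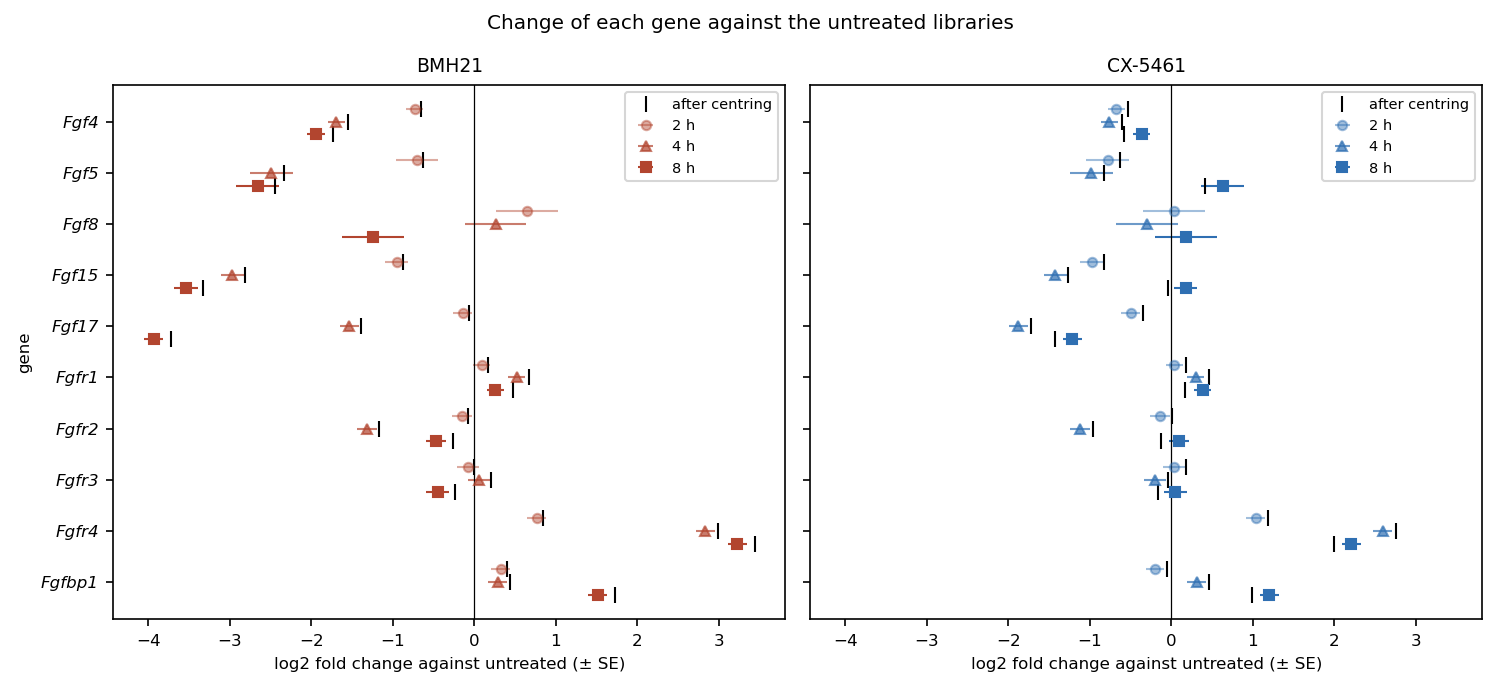
Log2 difference from the untreated libraries for each gene at 2, 4 and 8 h (circles, triangles and squares, with SE bars) of BMH21 on the left and CX-5461 on the right. Black ticks show the value after centring each library, which was not run for Fgf8. Fgf17 at -3.94 and Fgfr4 at 3.23 are the ends of the BMH21 panel.

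The share of each gene among its class does not depend on the scaling of a library. Fgf4 made up 71.0% ± 0.88 (SD, n = 3) of the reads per kb of the 5 ligands in control. At 8 h it made up 89.4% ± 0.59 under BMH-21 and 74.9% ± 2.1 under CX-5461. The Fgf17 share was 20.7% ± 1.3 in control and 28.4% ± 1.5 at 2 h of BMH-21. At 8 h it was 6.55% ± 0.69 under BMH-21 and 12.1% ± 0.64 under CX-5461. Fgf15 held 7.29% ± 0.64 in control, and at 8 h 3.02% ± 0.40 under BMH-21 and 11.2% ± 1.3 under CX-5461. Although its own level was lower, Fgf4 was thus a larger share of these 5 ligands after 8 h of BMH-21, with libraries from 88.95% to 90.03% against 70.3% to 72.0% in control. Other FGF ligands are not in this sum, so it is not the share among all ligands. Of those, Fgf18 held 577 to 595 reads in control and 1450 to 1847 at 8 h of BMH-21, while Fgf3 and Fgf10 held fewer reads there than in control.

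Among the 4 receptors Fgfr1 made up 70.3% ± 0.48 in control, and at 8 h 59.3% ± 0.52 under BMH-21 and 66.5% ± 1.4 under CX-5461. The Fgfr4 share was 4.19% ± 0.36 in control, 20.8% ± 1.1 at 4 h and 27.7% ± 1.3 at 8 h of BMH-21, and 20.2% ± 0.88 at 4 h and 14.01% ± 0.80 at 8 h of CX-5461. Fgfr2 went the other way, from 20.5% ± 0.40 in control to 5.74% ± 0.58 at 4 h of BMH-21 and 7.50% ± 0.39 at 4 h of CX-5461. At 8 h Fgfr2 stood at 10.5% ± 1.4 with BMH-21 and 15.8% ± 0.60 with CX-5461. In control the Fgfr2 share was above that of Fgfr4 in all 3 libraries, and after 8 h of BMH-21 it was below it in all 3.

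**Figure D3:**
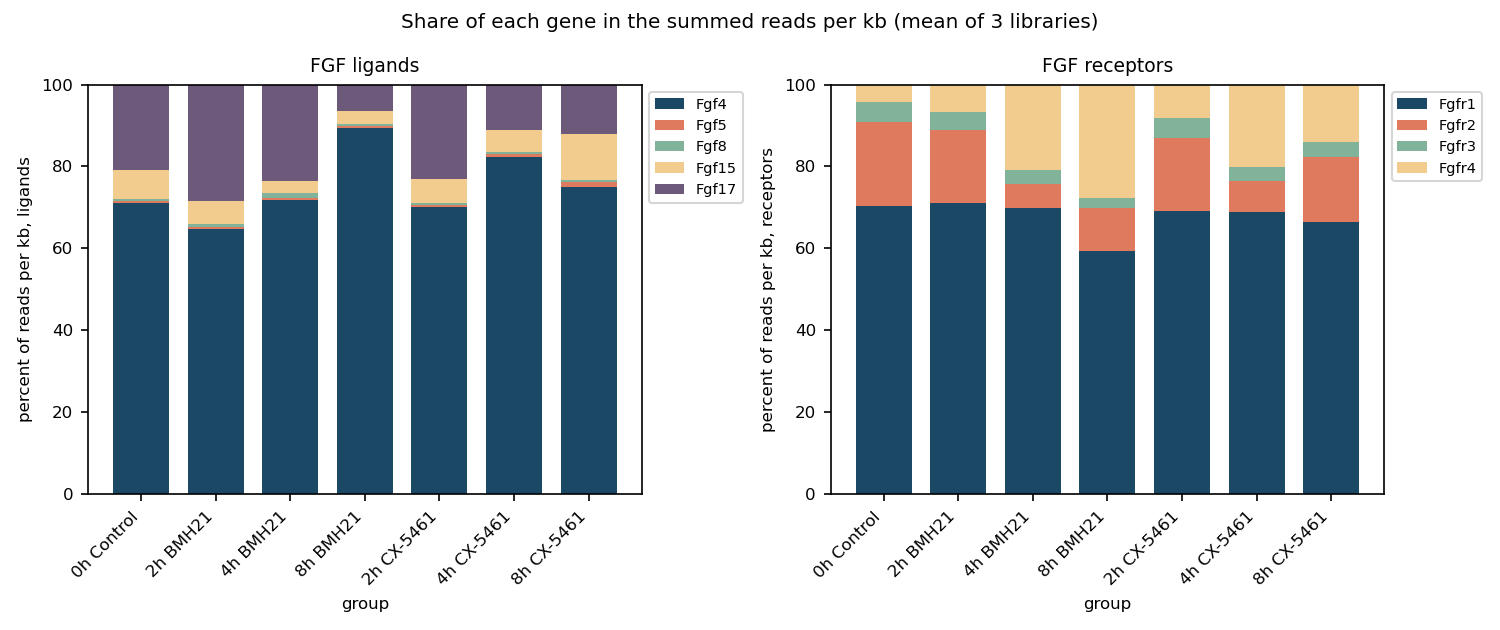
Stacked bars of the mean percent of reads per kb that each gene held among the 5 ligands (left) and the 4 receptors (right) in the 7 groups, 3 libraries each. The Fgf4 bar reaches 89.4% after 8 h of BMH21, and the Fgfr4 bar goes from 4.19% in control to 27.7% there.

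The inhibitors were set against each other at the same dose and time. At 2 h BMH-21 minus CX-5461 was -0.06 ± 0.11 (SE) for Fgf4, 0.07 ± 0.26 for Fgf5 and 0.02 ± 0.14 for Fgf15, with overlap. For Fgf17 it was 0.36 ± 0.12, with no overlap but short of the threshold. Fgfbp1 was at 0.52 ± 0.11, with no overlap, and was the gene past the threshold as deposited. Fgfr4 was at -0.27 ± 0.12, with no overlap but short of the threshold. After centring, Fgfbp1 (0.45), Fgf17 (0.29), Fgfr4 (-0.34) and Fgf4 (-0.13) were past the threshold. At 4 h BMH-21 libraries were lower for Fgf4 (-0.94 ± 0.11), Fgf5 (-1.51 ± 0.26) and Fgf15 (-1.55 ± 0.14), with no overlap. At 8 h the libraries of all 5 ligands were lower with BMH-21 with no overlap, as were those of 69.7% of all genes tested. The differences were -1.58 ± 0.11 for Fgf4, -3.29 ± 0.26 for Fgf5, -3.72 ± 0.14 for Fgf15, -2.72 ± 0.12 for Fgf17 and -1.43 ± 0.38 for the untested Fgf8. Fgfr4 was 1.02 ± 0.12 higher with BMH-21 at 8 h, and Fgfbp1 0.31 ± 0.11 higher, or 0.74 after centring and 0.78 with median ratios.

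Scaling bore most on this comparison, since centring removed a shift of -0.43 between the inhibitors at 8 h. After centring the 8 h differences were -1.15 for Fgf4, -2.86 for Fgf5, -3.29 for Fgf15 and -2.29 for Fgf17, and 1.45 for Fgfr4. Fgfr1 was at -0.13 as deposited and at 0.30 after centring, a change of sign. Fgfr2 (-0.56) and Fgfr3 (-0.50) came to -0.14 and -0.08 after centring, where they missed the threshold. By count, 1 gene was higher and 0 were lower with BMH-21 at 2 h (2.47% and 1.52% of all genes tested), or 2 and 2 after centring (7.83% and 7.58%) and with median ratios (5.48% and 9.58%). At 4 h 1 was higher and 3 lower (9.35% and 8.49%), or 4 and 4 after centring (27.4% and 18.5%) and 2 and 4 with median ratios (17.6% and 24.1%). The 1 higher gene, Fgf17, was lost without replicate 1 or 3 of either 4 h group. At 8 h 2 were higher and 6 lower (12% and 67.2%), or 3 and 4 after centring (31.1% and 40.6%) and with median ratios (34.4% and 36.4%), and 1 was higher without replicate 3 of the 8 h BMH21 group.

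Steps between successive times do not use the control libraries. From 2 to 4 h of BMH-21 the 9 genes had 2 higher and 5 lower (20.8% and 34.8% of all genes tested), led by Fgfr4 at 2.07 ± 0.12 (SE) and Fgf15 at -2.02 ± 0.14. From 4 to 8 h of BMH-21 there were 3 higher and 5 lower (18.6% and 37.8%), with Fgf17 at -2.40 ± 0.12, Fgfbp1 at 1.23 ± 0.11 and Fgfr2 at 0.84 ± 0.12. The lower count there was 3 without replicate 1 of the 4 h group or replicate 2 of the 8 h group. From 2 to 4 h of CX-5461 there were 3 higher and 3 lower (20.7% and 26.8%), with Fgfr4 at 1.56 ± 0.12 and Fgf17 at -1.38 ± 0.12. From 4 to 8 h of CX-5461 there were 6 higher and 1 lower (58.8% and 4.85%), or 5 and 2 after centring (25.8% and 32%) and with median ratios (26.4% and 30.9%). In that last step Fgf5 was at 1.61 ± 0.26, Fgf15 at 1.60 ± 0.14 and Fgfr2 at 1.22 ± 0.12, and Fgfr4 was the lower gene at -0.39 ± 0.12. After centring these 4 genes were at 1.24, 1.22, 0.84 and -0.76, and Fgfr1 was also lower, at -0.29.

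Other FGFs, some of which stay inside the cell, and FGF carriers were read from a list of 18 genes, of which 7 were tested and 11 lay below the filter. At 8 h of BMH-21, 2 rose and 3 fell (24.5% and 56.9% of all genes), with a list median of -0.24 beside -0.40 over all genes. With CX-5461 5 rose and 0 fell (35.1% and 14.3%), or 4 and 1 after centring (29.3% and 44.7%), with a median of 0.46 beside 0.11. Fgfbp3, a second FGF carrier, rose by 2.71 ± 0.16 (SE; adjusted p = 3.8e-33) with BMH-21 and by 2.62 ± 0.16 (adjusted p = 1.8e-31) with CX-5461, in 3 of 3 libraries each. Its libraries held 34 to 51 reads in control and 356 to 492 after 8 h of BMH-21. Fgf18 rose by 0.93 ± 0.11 (adjusted p = 8e-13) with BMH-21 and by 0.46 ± 0.11 (adjusted p = 0.0003) with CX-5461. Fgf10, a ligand of Fgfr2, fell by 1.95 ± 0.18 (adjusted p = 6.6e-19) with BMH-21 and was at -0.24 ± 0.18 (adjusted p = 0.28) with CX-5461, or at -0.45 and past the threshold after centring. Its 8 h libraries differed between the inhibitors by -1.72 (adjusted p = 2.3e-15). Fgf3 fell by 1.17 ± 0.21 (adjusted p = 4.8e-07) with BMH-21, in 3 of 3 libraries. Fgf11, an FGF relative that stays inside the cell, fell by 0.71 ± 0.15 (adjusted p = 1.7e-05) with BMH-21 and rose by 0.87 ± 0.15 (adjusted p = 6.7e-07) with CX-5461.

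Among the 11 genes below the filter Fgf6 was at 0 reads in the 3 control libraries. It had 20, 13 and 18 reads at 4 h and 19, 22 and 26 reads at 8 h of BMH-21, and 14, 16 and 14 reads at 4 h of CX-5461. Against a floor of 3 reads per control library, the 8 h BMH-21 level was at least 4.38-fold higher. Fgf22 had 2 reads in each control library and 13 to 21 at 8 h of BMH-21. Both genes were chosen after their values were seen and were not tested.

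Of 21 genes for co-receptors and for heparan sulfate synthesis, 19 were tested. At 8 h of BMH-21, 8 rose and 10 fell, beside 24.5% and 56.9% of all genes, with a median of -0.38 beside -0.40. With CX-5461 9 rose and 1 fell (35.1% and 14.3%), or 5 and 7 after centring (29.3% and 44.7%) and 9 and 6 with median ratios (35.2% and 35.3%). The syndecan gene Sdc4, for a heparan sulfate proteoglycan of the cell surface, rose by 3.14 ± 0.10 (SE; adjusted p = 4e-57) with BMH-21 and by 2.33 ± 0.10 (adjusted p = 2e-43) with CX-5461. Its control libraries gave 5.27, 5.20 and 4.98, and its 8 h BMH-21 libraries 8.31, 8.23 and 8.33. Sdc1, another syndecan gene, rose by 1.51 ± 0.11 (adjusted p = 8e-27) with BMH-21 and by 0.75 ± 0.11 (adjusted p = 1e-09) with CX-5461. Hs6st2, whose enzyme adds sulfate to heparan sulfate, rose by 1.40 ± 0.15 (adjusted p = 5.1e-16) with BMH-21 and by 0.76 ± 0.15 (adjusted p = 4.1e-06) with CX-5461. Sulf1, whose enzyme removes sulfate outside the cell, fell by 1.68 ± 0.12 (adjusted p = 2.2e-27) with BMH-21 and was at -0.26 ± 0.12 (adjusted p = 0.055) with CX-5461. Flrt1 fell by 1.20 ± 0.27 (adjusted p = 2.4e-05) with BMH-21 and was at -0.37 ± 0.27 (adjusted p = 0.25) with CX-5461. The CX-5461 values of Sulf1 and Flrt1 were past the threshold after centring (-0.47 and -0.59). Flrt1 was near the filter, with 40 to 66 reads in control libraries and 29 to 37 at 8 h of BMH-21. The glypican gene Gpc3 fell by 0.91 ± 0.11 (adjusted p = 6.6e-13) with BMH-21 and by 0.43 ± 0.11 (adjusted p = 0.00048) with CX-5461.

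All 21 genes of the adaptors and the RAS-ERK cascade were tested. At 8 h of BMH-21, 4 rose and 15 fell (24.5% and 56.9% of all genes), or 6 and 13 with median ratios (39.2% and 43.3%), with a median of -0.75 beside -0.40. With CX-5461 5 rose and 3 fell (35.1% and 14.3%), or 5 and 13 after centring (29.3% and 44.7%) and 5 and 9 with median ratios (35.2% and 35.3%), with a median of 0.04 beside 0.11. Sos2, an exchange factor that loads RAS, rose by 1.07 ± 0.12 (SE; adjusted p = 5.7e-14) with BMH-21 and by 1.00 ± 0.12 (adjusted p = 4e-12) with CX-5461. The scaffold gene Ksr1 rose by 0.98 ± 0.12 (adjusted p = 4.4e-13) with BMH-21 and by 0.80 ± 0.12 (adjusted p = 3.9e-09) with CX-5461. The adaptor gene Frs3 rose by 0.52 ± 0.12 (adjusted p = 4.5e-05) with BMH-21 and by 1.14 ± 0.12 (adjusted p = 3.2e-15) with CX-5461. Mapk3, which codes for an ERK kinase, fell by 1.37 ± 0.11 (adjusted p = 1.2e-23) with BMH-21 and by 0.35 ± 0.11 (adjusted p = 0.0042) with CX-5461. Map2k2, a MEK gene, fell by 0.98 ± 0.10 (adjusted p = 1.7e-15) with BMH-21 and by 0.34 ± 0.10 (adjusted p = 0.0047) with CX-5461.

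Of the feedback and target genes of the pathway 19 were tested. At 2 h of BMH-21, 4 rose and 4 fell (8.48% and 11.2% of all genes). At 4 h 3 rose and 15 fell (22.1% and 44.9% of all genes), and at 8 h 3 rose and 14 fell (24.5% and 56.9%), when the median was -0.89 beside -0.40 over all genes. With CX-5461 2 rose and 12 fell at 2 h (7.45% and 20.5%), and 3 rose and 12 fell at 4 h (19.8% and 51.2%). At 8 h 7 rose and 4 fell (35.1% and 14.3%), or 4 and 9 after centring (29.3% and 44.7%) and 7 and 7 with median ratios (35.2% and 35.3%). Spry4, an inhibitor that ERK signalling raises, fell by 2.33 ± 0.11 (SE; adjusted p = 4.4e-41) at 8 h of BMH-21 and was at 0.20 ± 0.11 (adjusted p = 0.14) with CX-5461. Ccnd1, the gene of the G1 cyclin D1, fell by 1.87 ± 0.11 (adjusted p = 7.3e-35) with BMH-21 and by 0.30 ± 0.11 (adjusted p = 0.011) with CX-5461. Etv1, an ETS factor, fell by 1.66 ± 0.12 (adjusted p = 2.3e-25) with BMH-21 and by 0.81 ± 0.12 (adjusted p = 6.4e-09) with CX-5461. Myc fell by 1.57 ± 0.11 (adjusted p = 1.5e-27) with BMH-21 and by 0.40 ± 0.11 (adjusted p = 0.0011) with CX-5461. The AP-1 genes Fosl1 and Fos were among those that rose. Fosl1 rose by 5.16 ± 0.17 (adjusted p = 2.1e-57) with BMH-21 and by 3.66 ± 0.17 (adjusted p = 8.8e-42) with CX-5461, from 6 to 14 reads in control. Fos rose by 2.54 ± 0.12 (adjusted p = 1.6e-41) and by 1.65 ± 0.12 (adjusted p = 3.4e-25).

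**Figure D4:**
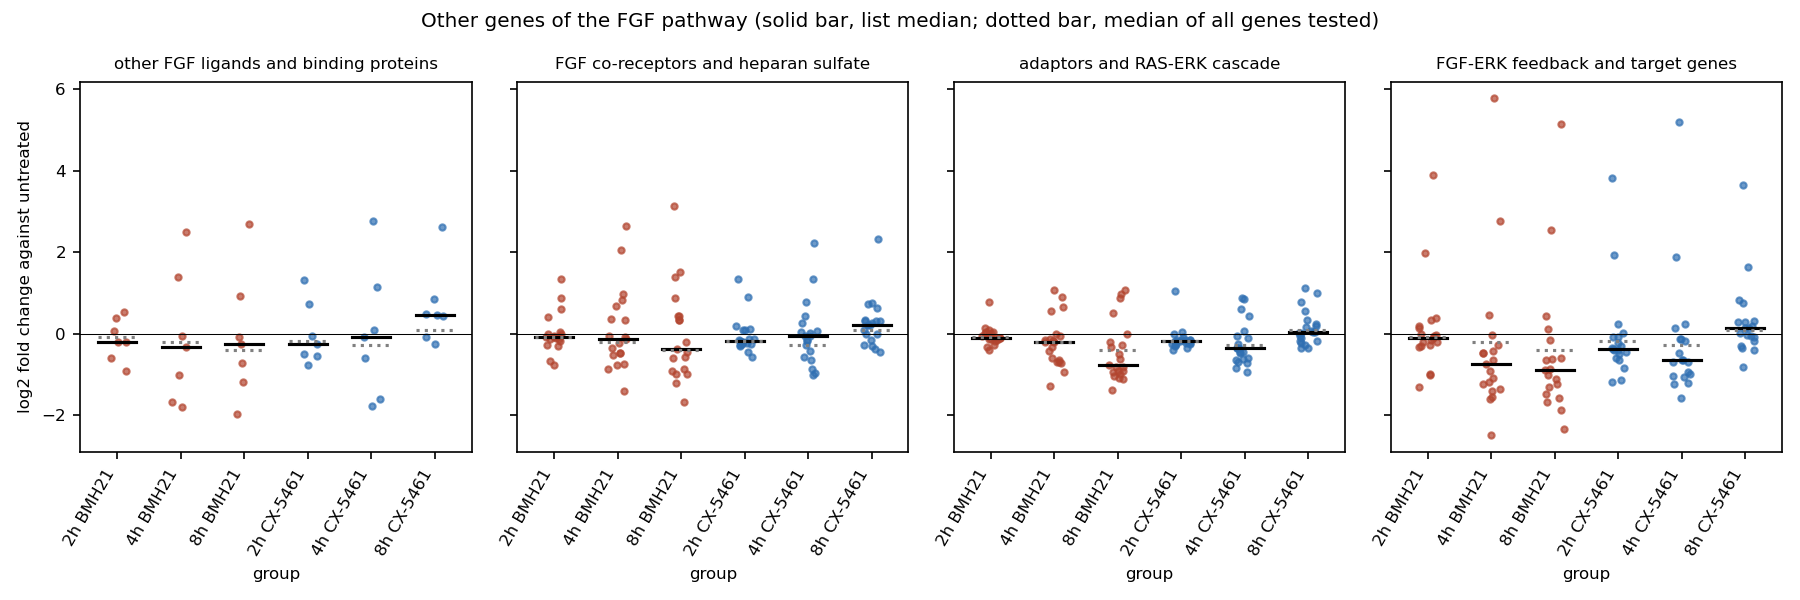
Log2 difference from the untreated libraries for the tested genes of 4 lists of the FGF pathway, 1 point per gene, in the 6 treated groups. Solid bars are list medians and dotted bars medians of all genes tested. At 8 h of BMH21 the medians are -0.24, -0.38, -0.75 and -0.89 from left to right, beside -0.40 for all genes, and Fosl1 is the highest point of the last panel.

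Fgf4 and Fgf15 lie in a cluster with Fgf3, near Ccnd1, on chromosome 7. Beside them 9 other genes within 440 kb of the Fgf4 start were measured. At 8 h of BMH-21, 1 of these 9 rose and 6 fell (24.5% and 56.9% of all genes), or 2 and 5 after centring (33.3% and 51.3%) and 3 and 4 with median ratios (39.2% and 43.3%). With CX-5461 1 rose and 1 fell (35.1% and 14.3%), or 1 and 4 after centring (29.3% and 44.7%) and 1 and 2 with median ratios (35.2% and 35.3%). Fgf3, 22.8 kb upstream, was lower at 4 h with both inhibitors, by 1.80 ± 0.21 (SE; adjusted p = 5.1e-13) and by 1.60 ± 0.21 (adjusted p = 7.5e-11), and was at -0.08 ± 0.21 (adjusted p = 0.8) at 8 h of CX-5461. Ccnd1, whose start is 78.4 kb downstream, was at -1.23 and -1.22 at 4 h of BMH-21 and CX-5461, then at -1.87 and -0.30 at 8 h. Oraov1, named Lto1 in RefSeq, lies between Fgf15 and Ccnd1 and overlaps the end of Ccnd1. It was at -0.35 ± 0.12 (adjusted p = 0.0053) at 8 h of BMH-21, or at -0.14 and not past the threshold after centring, and at -0.11 ± 0.12 (adjusted p = 0.45) with CX-5461.

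On the other side of the cluster the chloride channel gene Ano1, 109 kb upstream, rose by 1.99 ± 0.22 (SE; adjusted p = 3.4e-15) at 8 h of BMH-21 and by 1.66 ± 0.22 (adjusted p = 3.5e-11) with CX-5461. Farther out, Fadd (-0.03), Ppfia1 (-0.51) and Cttn (-0.37) at 8 h of BMH-21 were closer to 0 than Fgf3. Downstream, beyond Ccnd1, Tpcn2 was at -0.22 ± 0.11 (adjusted p = 0.071) at 8 h of BMH-21, 423 kb from the Fgf4 start. Mrgprf, 439.5 kb from it, fell by 1.06 ± 0.29 (adjusted p = 0.00049). Its libraries held few reads, 43 to 47 in control and 25 to 42 at 8 h of BMH-21.

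**Figure D5:**
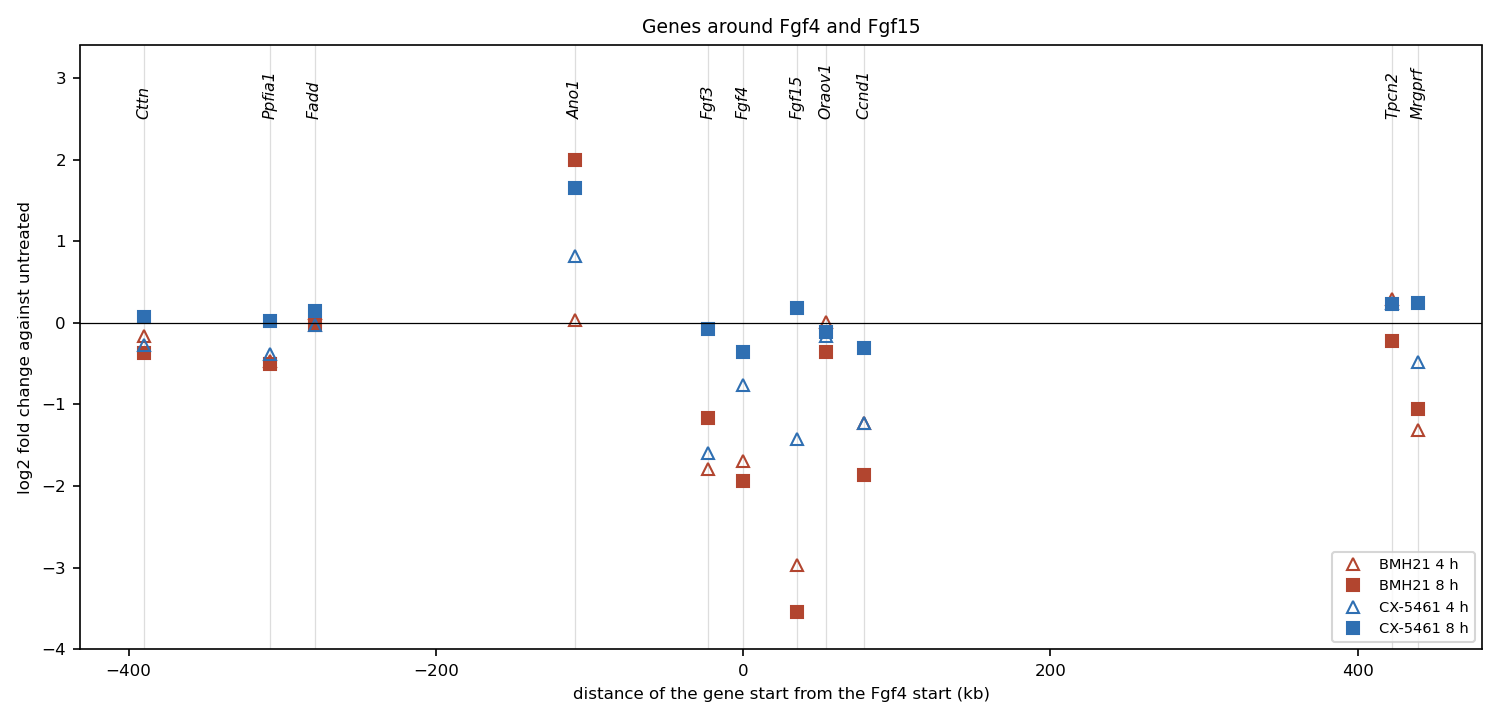
Log2 difference from the untreated libraries at 4 h (triangles) and 8 h (squares) of BMH21 (red) and CX-5461 (blue) for Fgf4, Fgf15 and 9 other genes, against the distance of each gene start from the Fgf4 start in kb. Fgf15 at -3.54 after 8 h of BMH21 is the lowest point, and Ano1 at 1.99 the highest.

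Genes whose 7 group means followed those of a member most closely were named by the highest Pearson r, among 4907 or 4908 genes with a largest mean of at least 2 and a range of at least 1 log2 unit. These r are over 7 group means of the same libraries on the deposited scale, and are a description. They were not computed after centring, and the part of library scaling in them was not tested. For Fgf4 the genes were Mettl4 (r = 0.995), Ankrd32 (r = 0.991) and Sall2 (r = 0.990). For Fgf5 they were Reep1 (r = 0.997), Mxra8 (r = 0.993) and Fgf15 (r = 0.989), and for Fgf15 Mcc, Fzd3 (r = 0.996 each) and Ago1 (r = 0.995). For Fgfr1 they were Kcnh3 (r = 0.975), Usp20 (r = 0.960) and Catsperg1 (r = 0.956), and for Fgfr3 Grasp (r = 0.964), Etv6 and Arhgdig (r = 0.932 each). Fgf15 spanned 3.72 log2 units over the groups, and Mcc 1.16, so likeness of pattern was not likeness of size. Fgfr1 and Fgfr3 spanned only 0.52 and 0.51 log2 units.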

How the data were processed

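The deposited table held log2 values for 20900 genes in 21 libraries. By their steps, these are log2 of reads plus an offset per scaled library total, as limma's voom gives. Per the submitters' processing notes, reads were handled with Trim Galore 0.5.0, TopHat2 2.1.1, R 4.0.5, DESeq2 1.30.1, edgeR 3.32.1 and limma 3.46.0 on mm10, with no roles given. Counting, strand use and annotation are not given in the sources used here. All values gave whole reads within 1e-06 once 0.5 reads were subtracted. Totals ran from 46604397 to 62812641, and the deposited scaling factors from 0.832 to 1.375, against 0.941 to 1.107 for median ratios. PCR duplicates cannot be told from molecules.

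Two-sided tests used limma 3.58.1 (R 4.3.3, eBayes with a trend) on the log2 values, 1 mean per group over 21 libraries, with Benjamini-Hochberg adjustment over 14666 genes above 0 in at least 3 libraries, at a threshold of 0.05, in 13 comparisons. For each p-value and SE, the variance of a gene was drawn toward a trend over all genes. The prior had 111.51 degrees of freedom beside 14 residual ones, so the trend outweighed the gene's own libraries. The unit is log2, so no count model was fitted, and fold changes of low genes are understated by the offset. The fit was also run on simulated reads with the same spread setting for all genes and no scaling shift between libraries. That run checked the code and cannot show how the calls depend on scaling. The members, lists and rules were chosen with earlier results of these data known. Genes named outside the 10 are, per list and inhibitor at 8 h against control, the 2 largest rises and falls past the threshold with no overlap, the measured neighbours of Fgf4 and Fgf15, and the 3 genes of most similar pattern. A gene that this rule names is not reported here. Spry3, Oct6 and a separate Lto1 entry were not analysed here. Coordinates are RefSeq GRCm38.p6 (mm10), lengths are those of the GENCODE M21 transcript with the longest coding sequence. Alternatives were other filters, offsets, scalings, variance models, samples in the fit, the replicate number as a block, and leaving out each library. Figures used matplotlib 3.10.9.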

Additional observations from a re-analysis of the deposited data

Results flagged for a closer look

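Some differences from the shared control had opposite signs in groups of the same contrast, with all 3 libraries of each group on that side of the control libraries. Fgf5 was at -2.66 after 8 h of BMH-21 and at 0.63 after 8 h of CX-5461. The latter was 0.42 after centring, not past the threshold, and -0.00040 with quantile normalization. With CX-5461 alone, Fgf5 was at -0.78 at 2 h and -0.98 at 4 h, and at 0.63 at 8 h. Fgf8, at 8 to 33 reads per library, was at 0.64 after 2 h of BMH-21 and at -1.25 after 8 h. No test of these sign changes is reported, because the genes had been selected on these libraries. Fgf8 was also below the filter.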

How the results depend on the processing

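Over the alternatives that keep all libraries, 1212 member differences kept their side of the threshold, 22 lost the threshold, 30 gained it and 10 changed sign. A sign change was counted only where a value was past the threshold, so the 1212 include changes of sign short of it. Fgf15 at 8 h of CX-5461 against control, for example, was at 0.18 as deposited and at -0.04 after centring. Quantile normalization gave -0.00040 for Fgf5 and -0.43 for Fgfr3 at 8 h of CX-5461 against control, 0.016 for Fgfr1 from 4 to 8 h of BMH-21 and 0.075 for Fgf4 from 2 to 4 h of CX-5461. Fgfr1 at 8 h, BMH-21 minus CX-5461, was 0.30 centred, 0.34 with median ratios and 0.32 with quantiles, and from 4 to 8 h of CX-5461 it was -0.29, -0.28 and -0.19. Under these 3 scalings the members higher at 2 h of CX-5461 were 2, those higher and lower at 2 h between inhibitors were 2 and 2, and those lower from 4 to 8 h of CX-5461 were 2. Voom weights also gave 2 higher at 2 h between inhibitors. Between inhibitors at 4 h the count higher was 4 centred or with quantiles, 2 with median ratios, and 0 with no filter, with values below 0 set to 0, with no trend or with only the groups compared. The count lower from 4 to 8 h of BMH-21 was 3 with only the groups compared, and that from 2 to 4 h of CX-5461 was 5 with quantiles. The cause was not tested. Leaving out 1 library at a time, the count higher ran from 1 to 2 at 2 h of BMH-21, 1 to 3 at 4 h of CX-5461, 0 to 1 at 4 h and 1 to 2 at 8 h between inhibitors, and the count lower from 3 to 5 from 4 to 8 h of BMH-21. Of the member differences 658 kept their side of the threshold and 44 lost it. Depth limits Fgf8, Fgf5 and the 11 other ligands below the filter.

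With the replicate number as a block, the 26 member counts and 117 member differences kept direction and side, for example 3 higher and 6 lower at 8 h of BMH-21, and 2 of 130 list counts moved. No pairing by number was seen in the values. Of 63 same-numbered pairs 1 had a correlation of deviations over 0.1 (range -0.25 to 0.11). In 20 the own number was the best match. These correlations cannot show whether same-numbered libraries came from the same culture.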
